A study of Mus musculus with 2 samples.

Results

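The cells described here are ventricular cardiomyocytes of the newborn mouse heart, divided into cells that carried transcripts of the mitotic cell cycle and cells in which none of 8 such transcripts was counted. They came from single-cell RNA sequencing (10x Chromium, 3' version 2 chemistry) of whole hearts of C57BL6+ICR background at postnatal day 0, freed with trypsin. The series holds 1 biological sample, loaded as 2 technical replicates. The number and sex of the hearts were not given. The hearts carried no stated treatment or transgene, and the series was made to chart the cell types found in a newborn heart. All cells came from 1 sample of 1 age, and the 2 states were separated by their transcripts alone.

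A barcode was taken as ventricular when it had at least 500 detected genes, under 0.5% of its counts from 4 haemoglobin genes, at least 10 counts and 0.3% of counts from the myosin light chain genes Myl2 and Myl7, a Myl2 part of those above 0.8, and no count of the endothelial genes Pecam1 and Cdh5. Of 11935 barcodes, 2997 met this rule (1661 and 1336 in technical replicates 1 and 2). The cycling score was the sum of counts of Top2a, Mki67, Ccnb1, Ccna2, Cenpf, Hmmr, Anln and Racgap1. A score of 5 or more defined 179 cycling barcodes (100 and 79), and a score of 0 defined 2436 resting barcodes (1363 and 1073). The other 382 had scores of 1 to 4 and belong to neither state. The 2 replicates shared 1 barcode sequence among the resting barcodes and none among the cycling ones. Because the states were chosen from the counts of the same cells, every difference between them is a description. No test was run and no p-value is given, since there was 1 biological sample.

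Cycling barcodes made up 5.97% of the ventricular barcodes (exact Clopper-Pearson 95% interval 5.15 to 6.88), with 6.02% and 5.91% in the 2 replicates. The score is a sum of raw counts and grows with depth. With each barcode thinned to 2000 counts and a score of at least 2, the share was 5.74% (171 of 2979 barcodes, interval 4.93 to 6.64). Cycling barcodes were deeper, with a median of 8745 counts and 2463 genes against 6267 counts and 1735 genes in resting ones. Mitochondrially encoded genes took a median of 33.2% of the counts of a cycling barcode (32.8% and 34.6% in the replicates) and 40.6% of a resting one (40.4% and 40.9%). The 2 libraries held 34668956 and 33871582 counts over all barcodes, of which the cycling state held 1627200 and the resting state 15928859. Neither the part that depth plays in the differences below nor the part that the mitochondrial share plays was tested. Depth-matched values use resting barcodes matched 1 to 1 on depth. They are given beside those named genes that still reached the count filter and lost their call. They also stand beside some, but not all, of the other genes whose ratio they moved by over 1.5 times.

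The cell cycle runs from G1, in which a cell grows and D cyclins with their kinases release E2F factors from the retinoblastoma family, through S phase, in which the genome is copied, to G2 and mitosis, in which Cdk1 with cyclin B drives chromosome condensation, spindle assembly and division of the cell body. Mammalian cardiomyocytes divide in the embryo and around birth and then leave the cycle. Many of their last nuclear divisions end without a division of the cell body, so that cells keep a pair of nuclei. A dividing cardiomyocyte also takes apart its sarcomeres, the contractile units of thick and thin filaments, for the time of mitosis. E2F sites are known in the promoters of many S phase genes, and the cell cycle homology region (CHR), often near CCAAT boxes, in those of many mitotic genes.

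Levels are given as nuclear CPM, the counts of a gene per 1000000 counts of its state after the mitochondrially encoded genes and 10 haemoglobin genes were set aside. Ratios are cycling over resting, with an exact 95% interval that covers counting error only. A gene was called higher or lower when its ratio was at least 1.5-fold in the same direction in both technical replicates. Of 9922 genes with at least 20 counts over both states in each replicate, 1017 were called higher (10.2%) and 647 lower (6.52%), or 16.8% in either direction, and the median ratio was 1.03. A gene that is nearly absent from resting barcodes reaches that count only if it is high in cycling ones. Among the 9586 genes with at least 20 resting counts in each replicate, 8.84% were called higher and 6.7% lower. Unless stated, counts of called members below are over all measured members of a list. A member under the count filter could not be called, whereas the shares of all genes are over those that passed it. The plot of both replicates' ratios shows all genes that had a ratio above 0 in both.

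**Figure D1:**
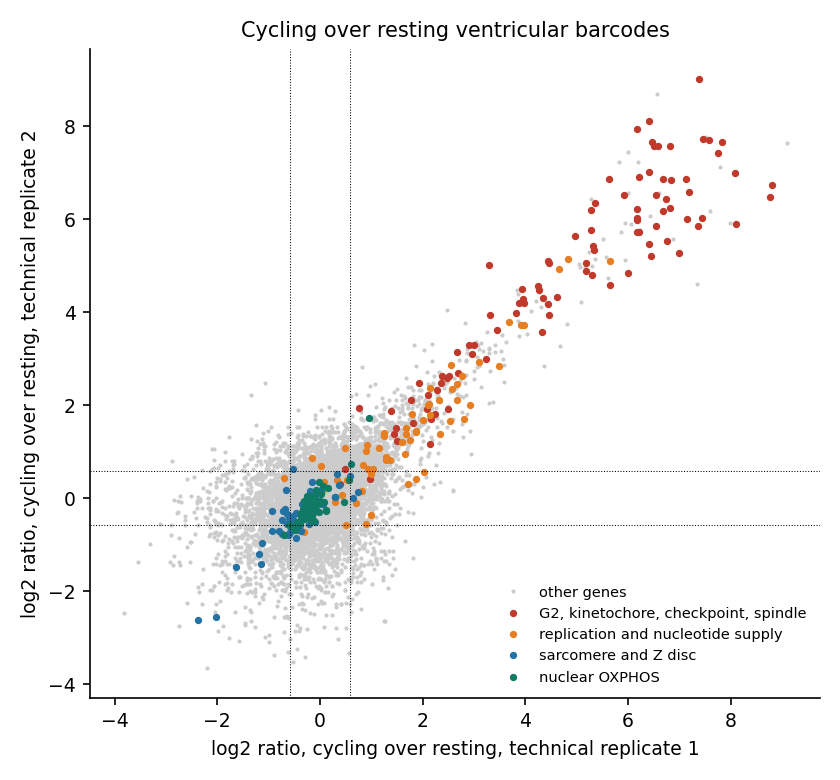
Log2 ratio of nuclear CPM, cycling over resting ventricular barcodes, in technical replicate 1 (x axis) and technical replicate 2 (y axis), 1 point per gene with at least 20 counts over both states in each replicate and a ratio above 0 in both. Dotted lines mark 1.5-fold. Genes of G2, kinetochore, checkpoint and spindle lie at the upper right, and sarcomere, Z disc and oxidative phosphorylation genes lie mostly at or below 0 in both replicates.

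The label of the state was first set against genes that the rule had not used. Rrm2, a subunit of the ribonucleotide reductase that makes deoxynucleotides, was counted in 149 of 179 cycling barcodes (83.2%) and in 138 of 2436 resting ones (5.67%). Its level was 806 and 571 nuclear CPM in cycling barcodes of replicates 1 and 2 and 16.0 and 16.6 in resting ones. Both cycling values stood far above both resting values, with a pooled ratio of 42.9 (36.1 to 51.3), and 67.7 when matched on depth. As to cell type, 9 ventricular markers outside the rule summed to 15037 nuclear CPM in cycling and 20094 in resting barcodes, a ratio of 0.748 (0.775 and 0.716). Of these 9, 2 were called lower, Myh7 and Ryr2, and none higher. The regulatory light chain gene Myl2 was itself part of the rule.

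Barcodes just inside and just outside the threshold of 5 were few. The 12 barcodes with a score of 4 had 3676 nuclear CPM over 43 genes of a published G2M list and 4568 over 42 genes of the S list. The 16 barcodes with a score of 5 had 4301 and 2742. Across the whole range, the G2M list went from 718 nuclear CPM at a score of 0, over 952 at 1 and 2448 at 2 to 3, to 15790 at 30 or more. The S list went from 654 at 0 to 1742 at 2 to 3, and to 2185 at 30 or more, with 3915 at 10 to 29. Thick and thin filament genes went from 64069 nuclear CPM at a score of 0 to 59644 at 1, 54635 at 2 to 3, 45011 at 10 to 29 and 42843 at 30 or more. In each of these sums the barcodes with a score of 1 to 3 lay between those at 0 and those at 30 or more.

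**Figure D2:**
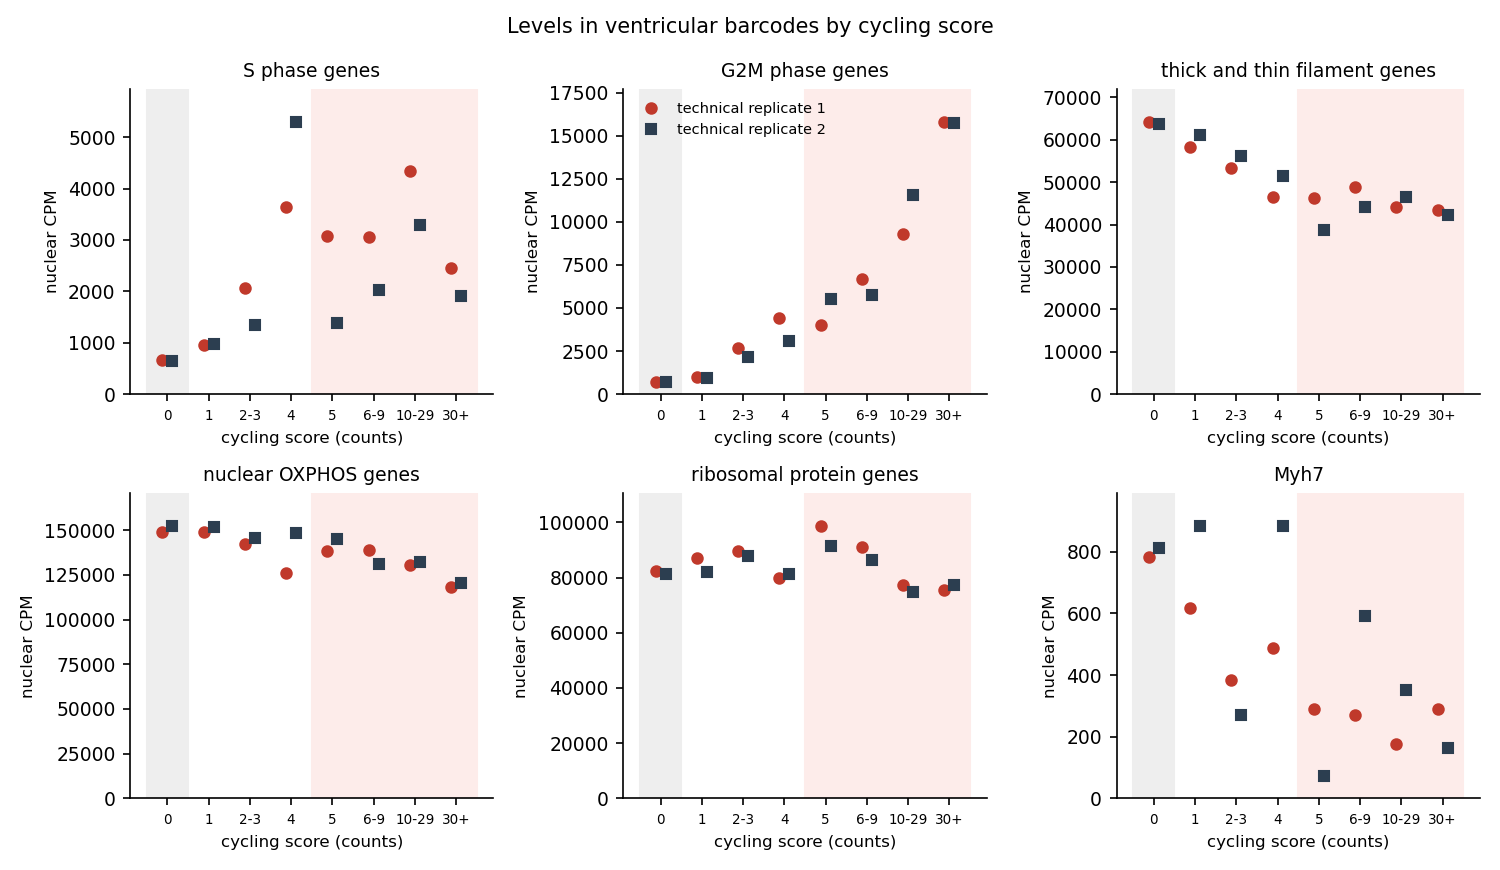
Summed nuclear CPM of 5 gene lists and the level of Myh7 (y axes, from 0) in ventricular barcodes grouped by cycling score (x axis), 1 symbol per technical replicate. Grey shading marks resting and red shading cycling barcodes. The G2M list reaches its highest level, 15790 over both replicates, at a score of 30 or more, and the filament genes are lower at every score above 0 than the 64069 at score 0.

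Promoter sequences of 6 genes are shown because they stand for the groups that the results turn on: Cdk1, Ccnb2 and Cdc20 for mitotic entry and anaphase, Kif23 for cytokinesis, Mcm6 for replication and Myh7 for the contractile genes that were lower. The sequences are from RefSeq on GRCm38.p6, 5′ to 3′ on the strand of the gene, from 220 bases before the start to 20 bases after it. Capitals mark matches on either strand to CHR (TTTGAA or TTCGAA), to CCAAT, and to an E2F motif (TTTCCCGC, TTTCGCGC, TTTGCCGC or TTTGGCGC). All 6 genes lie on the minus strand. The windows are chr10:69352893-69353132 for Cdk1, chr9:70421535-70421774 for Ccnb2, chr4:118437324-118437563 for Cdc20, chr9:61946780-61947019 for Kif23, chr1:128359686-128359925 for Mcm6 and chr14:54994607-54994846 for Myh7.
Cdk1: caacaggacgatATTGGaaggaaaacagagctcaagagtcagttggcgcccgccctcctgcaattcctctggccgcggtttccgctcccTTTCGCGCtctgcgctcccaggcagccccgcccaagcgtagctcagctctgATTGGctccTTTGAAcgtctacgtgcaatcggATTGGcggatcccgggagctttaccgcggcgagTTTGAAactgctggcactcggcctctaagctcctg
Ccnb2: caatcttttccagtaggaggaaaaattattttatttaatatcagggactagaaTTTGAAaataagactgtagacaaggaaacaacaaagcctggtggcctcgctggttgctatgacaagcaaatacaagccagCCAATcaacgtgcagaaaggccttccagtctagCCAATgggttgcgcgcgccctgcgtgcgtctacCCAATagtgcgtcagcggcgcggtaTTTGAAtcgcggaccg
Cdc20: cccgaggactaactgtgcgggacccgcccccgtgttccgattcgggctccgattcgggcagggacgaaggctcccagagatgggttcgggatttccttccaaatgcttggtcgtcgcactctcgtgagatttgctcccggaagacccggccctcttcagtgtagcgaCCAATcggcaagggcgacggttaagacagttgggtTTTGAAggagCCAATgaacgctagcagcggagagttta
Kif23: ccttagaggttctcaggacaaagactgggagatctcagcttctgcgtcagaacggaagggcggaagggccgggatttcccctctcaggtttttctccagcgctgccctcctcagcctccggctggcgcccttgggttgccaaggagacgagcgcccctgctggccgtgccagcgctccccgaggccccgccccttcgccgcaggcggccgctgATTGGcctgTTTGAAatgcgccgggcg
Mcm6: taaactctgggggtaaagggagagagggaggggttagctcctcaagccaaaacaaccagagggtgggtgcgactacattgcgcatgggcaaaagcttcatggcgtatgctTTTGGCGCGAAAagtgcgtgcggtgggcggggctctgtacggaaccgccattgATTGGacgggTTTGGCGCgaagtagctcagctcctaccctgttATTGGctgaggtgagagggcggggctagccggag
Myh7: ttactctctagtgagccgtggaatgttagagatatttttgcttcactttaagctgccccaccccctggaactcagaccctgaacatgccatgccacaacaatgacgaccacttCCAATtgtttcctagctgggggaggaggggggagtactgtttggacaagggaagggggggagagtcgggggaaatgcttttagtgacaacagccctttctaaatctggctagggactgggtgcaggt

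Positions are those of the first base of a match, negative before the start. Cdk1 held CHR matches at -71 and -15, CCAAT boxes at -208, -80 and -48 and an E2F match at -131. Ccnb2 held CHR matches at -167 and 5 and CCAAT boxes at -87, -54 and -21. Cdc20 held a CHR match at -18 between CCAAT boxes at -53 and -8, and Kif23 held a CCAAT box at -7 and a CHR match at 3. Mcm6 held no CHR match in this window but E2F matches at -110, -106 and -47, of which the first and second overlap, and CCAAT boxes at -57 and -14. Myh7 held 1 CCAAT box, at -107, in the first of its 2 windows.

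Over 32544 windows of 300 bases, from 250 before to 50 after the start of 26742 genes, 19.1% held a CHR match, 37.4% a CCAAT box and 2.28% an E2F match. For genes that passed the count filter these shares were 13.7%, 37.7% and 4.09%. A window was matched for 820 of the 1017 genes called higher, of whose windows 25.1% held a CHR match and 47% a CCAAT box. Windows of genes called lower held a CHR match in 9.08% and a CCAAT box in 35.9% (501 of 647 genes matched). By gene group, a CHR match stood in 60.7% of windows of spindle genes (26 of 30 genes matched), 57.9% of those of G2 and mitotic entry genes (18 of 27) and 53.8% of those of kinetochore and condensation genes (35 of 41). It stood in 41.2% of windows of licensing genes and 13.2% of those of replication fork genes. Among lists of the contractile and regulatory genes the shares ran both below and above the 13.7%: 8.57% of windows of thick and thin filament genes (27 of 30), 22.2% of those of Z disc and M band genes (28 of 34) and 25.8% of those of cardiac transcription factors (19 of 30). An E2F match stood in 47.1% of windows of licensing genes (15 of 21 matched) and 28.9% of those of replication fork genes (30 of 36), and in none of 35 windows of thick and thin filament genes. A match is a match of letters and was not tested as a binding site.

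Genes that license and fire replication origins were higher in cycling barcodes. Of 21 measured, 11 were called higher and none lower, and their summed level was 793 against 217 nuclear CPM, a ratio of 3.66 (4.17 and 3.03 in the replicates). Of the 13 with at least 20 resting counts in each replicate, 9 were called higher. Mcm6, a subunit of the replicative helicase, stood at 65.3 and 60.7 nuclear CPM in cycling and 27.6 and 23.0 in resting barcodes. The replicates of each state lay close together and apart from the other state, with a ratio of 2.47 (1.87 to 3.24). Dbf4, the activating subunit of the kinase that fires origins, was 27.2 times higher (19.8 to 37.9), and Gmnn, the geminin that blocks repeated licensing, 4.50 times (3.75 to 5.38). Mcm5 had a ratio of 2.94 and Mcm2 of 2.503, but replicate 2 stayed under 1.5-fold in both, at 18.2 against 12.4 and 30.4 against 22.7 nuclear CPM, so neither was called. Matched on depth, Mcm5 stood at 1.91. With resting barcodes matched on depth, which leaves fewer counts, 6 were called higher and the sum ratio was 3.43.

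Replication fork genes were called higher in 22 of 36 measured cases and lower in none. Of the 26 with 20 resting counts in each replicate, 20 were called higher. Pcna, the sliding clamp of the DNA polymerases, had 116 and 91.1 nuclear CPM in cycling and 19.5 and 17.8 in resting barcodes, a ratio of 5.57 (4.37 to 7.08). Uhrf1, which guides maintenance methylation of new DNA, was 14.3 times higher (10.3 to 20.01) and Asf1b, a histone chaperone, 30.4 times (20.2 to 47.0). Matched on depth, the ratio of Uhrf1 was 5.43 (3.18 to 9.88) and that of Pcna 8.43 (4.64 to 16.8). Pola2, the B subunit of polymerase alpha, had 11.7 and 10.1 against 14.5 and 16.9 nuclear CPM and was not called. Among 19 genes of nucleotide supply, 9 were called higher and the sum ratio was 3.40. Tyms, which makes thymidylate, was 4.24 times higher (2.87 to 6.20), Tk1 14.7 times and Rrm1 8.11 times. Genes of purine synthesis were near their resting level, with Paics at a ratio of 1.07 (0.904 to 1.26) and Gart at 0.921 (0.572 to 1.42).

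Genes of G2 and mitotic entry had larger ratios than those of replication. The score genes act mostly in G2 and mitosis, so the rule itself favours this order, and the order is not read as a result. Of 27 measured, 22 were called higher and none lower, and the sum was 4825 against 211 nuclear CPM, a ratio of 22.8 (22.7 and 22.9). Of the 27, 9 had 20 resting counts in each replicate, and 8 of these were called higher. Cdk1, the mitotic kinase, stood at 353 and 269 nuclear CPM in cycling and 5.52 and 9.37 in resting barcodes, a ratio of 43.7 (33.7 to 57.4). It was counted in 60.9% of cycling and 2.75% of resting barcodes. Ccnb2, a B cyclin outside the score, had 213 and 223 against 2.95 and 4.22 nuclear CPM, a ratio of 62.0 (43.1 to 91.6). Plk1, the kinase of mitotic entry, had 75.4 and 136 against 0.736 and 1.17, a ratio of 111 (56.3 to 248). In all 3 genes both cycling values lay far above both resting values. Cdk1 had ratios of 64.0 and 28.7 in the single replicates. Matched on depth, Ccnb2 stood at 210, from 1 resting count, and Plk1 had no resting count. Cks2, a small partner of Cdk1, had 1198 and 1466 against 30.0 and 34.4 nuclear CPM, a ratio of 41.3. Cdc25a, a phosphatase that acts at the entry to S phase, had a ratio of 1.67 (0.993 to 2.67) and was not called.

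Chromosome and kinetochore genes were higher too. Of 41 measured, 34 were called higher and none lower, 6 did not reach the count filter, and the sum was 6605 against 497 nuclear CPM (ratio 13.3, with 12.5 and 14.3). Of the 15 with 20 resting counts in each replicate, 14 were called higher. Cenpa, the centromeric histone H3, had 938 and 1375 against 48.4 and 62.1 nuclear CPM, a ratio of 20.9 (18.8 to 23.2). The condensin subunit Smc4 was 16.8 times higher (14.7 to 19.3) and the kinetochore subunit Nuf2 128 times (75.9 to 233). Kif4, a kinesin of chromosome arms, had 115 counts in cycling and 4 in resting barcodes, a ratio of 256 that counting alone leaves between 97.2 and 954. In the single replicates it was 167 and 519, and matched on depth 51.0. Rad21, the cohesin subunit cut at anaphase, was 7.46 times higher (6.83 to 8.15). Smc3, another cohesin subunit, had 77.1 and 68.8 against 59.1 and 55.5 nuclear CPM and was not called (1.27, 0.996 to 1.61).

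Checkpoint and anaphase genes were called higher in 13 of 15 measured cases, including 6 of the 8 with 20 resting counts in each replicate, with none lower. Cdc20, which activates the anaphase-promoting complex, had 305 and 324 nuclear CPM in cycling and 1.84 and 5.62 in resting barcodes, a ratio of 89.5 (62.8 to 131). Ube2c, the ubiquitin-conjugating enzyme of that complex, was 62.9 times higher (52.7 to 75.6) and Bub1, a checkpoint kinase, 112 times (56.8 to 250). In the single replicates Cdc20 stood at 166 and 57.6 and Bub1 at 72.8 and 246. Matched on depth, Cdc20 stood at 152, from 2 resting counts, and Bub1 had none. The complex's small subunits differed from its regulators: Anapc11 had a ratio of 1.47 (1.31 to 1.65) and Anapc13 of 0.821 (0.741 to 0.907), and neither was called. All 25 spindle and mitotic kinesin genes that passed the filter, of 30 measured, were called higher, 9 of them with 20 resting counts in each replicate. Tubb5, a beta tubulin, had 1690 and 1729 against 328 and 309 nuclear CPM (5.34, 5.04 to 5.66). Stmn1, the microtubule-destabilising stathmin, had 1419 and 1253 against 150 and 158 (8.77, 8.15 to 9.43). Aspm, a spindle pole protein, was 213 times higher (110 to 473), from 216 counts against 9.

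Of 27 cytokinesis genes measured, 14 were called higher and none lower, and the sum ratio was 2.69 (2.51 and 2.92). Kif23, the kinesin of the centralspindlin complex at the midbody, had 101 and 140 nuclear CPM in cycling and 0.184 and 0.703 in resting barcodes. That is 129 counts against 4, a ratio of 287 with an interval from 109 to 1069. Prc1, which bundles the midzone microtubules, had 449 and 486 against 2.03 and 3.51, a ratio of 174 (117.2 to 269). Ect2, which activates RhoA at the furrow, was 63.2 times higher (38.9 to 108), Cep55, which acts at the final cut, 82.5 times (44.2 to 170), and Cit, the citron kinase of the midbody, 46.5 times (25.5 to 91.8). The chromosomal passenger genes Aurkb and Birc5 were 71.1 times (35.5 to 162) and 55.7 times (44.8 to 69.9) higher. In the single replicates Kif23 stood at 546 and 199, Cep55 at 56.9 and 150 and Aurkb at 118 and 47.5. Matched on depth, Prc1 stood at 113 and Aurkb at 31.9, from 4 and 2 resting counts, while Kif23, Ect2 and Cep55 had no resting count. Of the 15 members with 20 resting counts in each replicate, 3 were called higher. Rhoa itself had a ratio of 1.33 (1.19 to 1.48), the kinases Rock1 and Rock2 of 1.28 and 1.29, and the abscission genes Chmp4b and Spast of 1.09 and 0.889, and none of these was called. The non-muscle myosin gene Myh10 was 2.01 times higher (1.69 to 2.37), while Myh9 had 10 counts against 126 and a ratio of 0.706 (0.330 to 1.34), not called. The septin gene Sept7 was 1.70 times higher (1.52 to 1.89), a call that matching on depth ended (1.65).

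**Figure D3:**
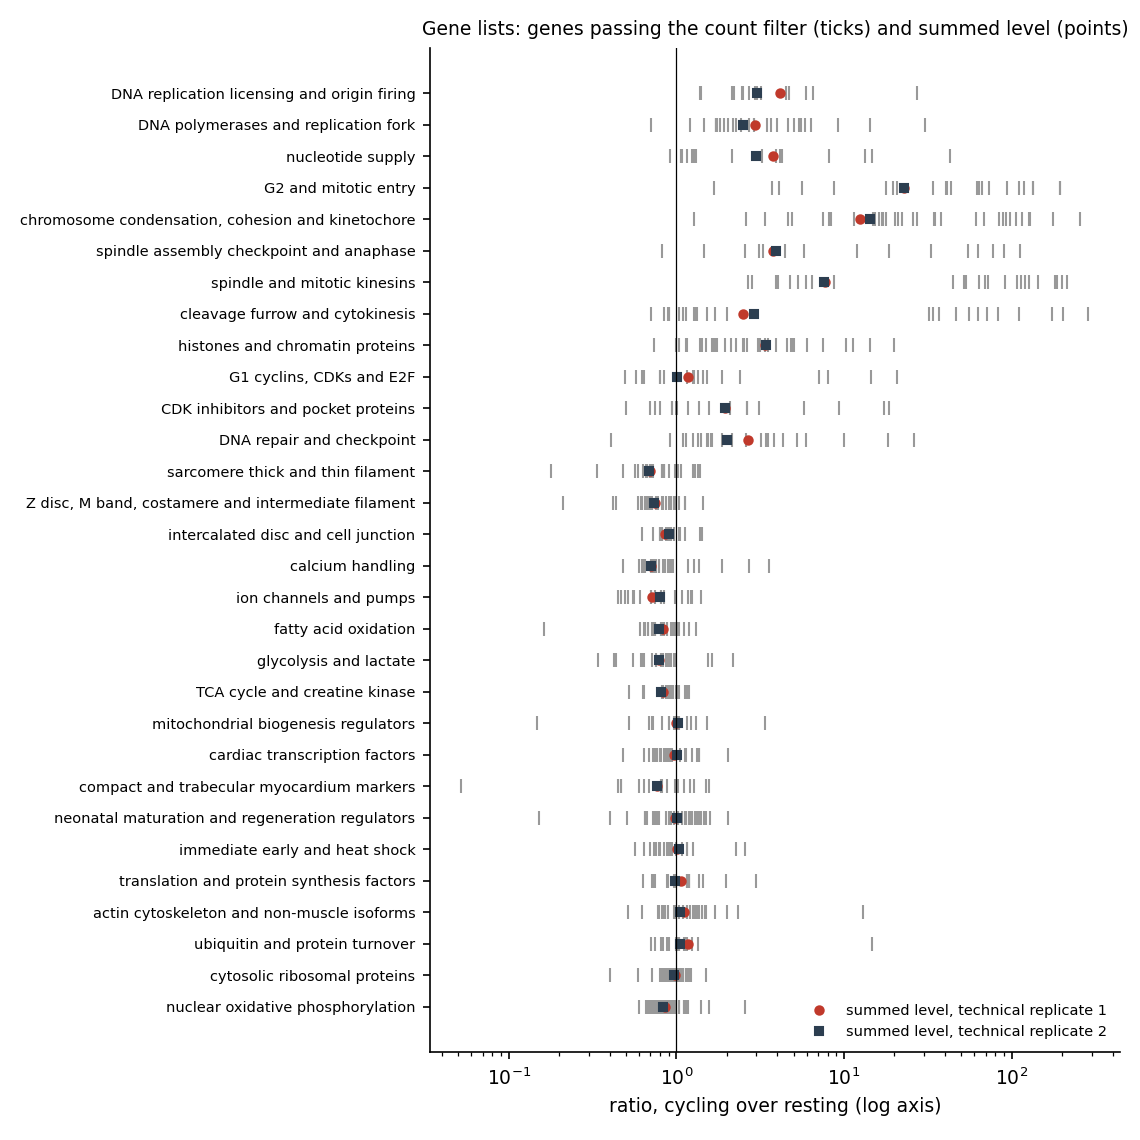
Ratio of nuclear CPM, cycling over resting (x axis, log scale), for 30 gene lists (rows). Grey ticks are genes that passed the count filter, circles and squares the summed level of all measured members in technical replicates 1 and 2. Mitotic lists stand to the right with sums from 2.51 to 22.9, and the thick and thin filament, Z disc, calcium, ion channel and oxidative phosphorylation lists stand left of 1 in both replicates.

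Of 42 histone and chromatin genes measured, 25 were called higher and none lower, and the sum ratio was 3.40. H2afz, the histone variant H2A.Z, had 3615 and 3331 nuclear CPM in cycling and 342 and 341 in resting barcodes, a ratio of 10.2 (9.75 to 10.7). Hmgb2, a DNA-bending chromatin protein, had 1756 and 1829 against 87.6 and 93.9, a ratio of 19.8 (18.3 to 21.4). Lmnb1, a B-type lamin, was 7.47 times higher (6.39 to 8.74), whereas Lmna, the A-type lamin gene, had 75.4 and 85.05 against 81.6 and 78.5 nuclear CPM, a ratio of 0.995 (0.787 to 1.24). Hist1h2bc had a ratio of 0.732 (0.550 to 0.957) and was not called. Single members of the histone, tubulin and calmodulin families share sequence with near-identical copies, so reads may have been split among them.

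The G1 genes were divided. Of 22 measured, 19 passed the count filter. Of these, 5 were called higher and 1 lower, beside 10.2% and 6.52% of all genes that passed. The sum was 1051 against 954 nuclear CPM (ratio 1.102, with 1.18 and 1.01). The S phase cyclins Ccne1 and Ccne2 were 14.5 times (8.48 to 25.1) and 7.11 times (4.57 to 11.002) higher, the factor E2f1 8.02 times (5.89 to 10.9) and the repressor E2f8 20.6 times (12.3 to 35.7). In the single replicates Ccne2 stood at 9.77 and 4.13 and E2f8 at 28.1 and 13.4. E2f5 was also called higher, at 2.20 and 2.63 in the replicates, but its log2 ratio was -0.085 when thinned. Matched on depth, 10 of the list reached the count filter, against 19 before. Of these, 1 was called higher and 2 lower, and the sum ratio of the list was 0.968. Ccne1, Ccne2 and E2f8 fell below the filter there, at ratios of 8.65, 7.10 and 15.1. Ccnd2, a D cyclin, was the member called lower, with 219 and 217 nuclear CPM in cycling and 393 and 357 in resting barcodes. Both cycling values lay below both resting values, with a ratio of 0.578 (0.505 to 0.659), and 0.460 with resting barcodes matched on depth. Ccnd3 had a ratio of 0.645 (0.520 to 0.792) and was not called. Ccnd1 had 13 counts against 92 (1.26, 0.645 to 2.26, and 1.92 when matched on depth). The D cyclin kinases Cdk4 and Cdk6 had ratios of 1.35 and 0.797 and were not called.

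Several genes that hold the cycle back were higher in the cycling state. Of 21 genes of CDK inhibitors, pocket proteins and related brakes, 19 passed the count filter. Of these, 8 were called higher and 1 lower, beside 10.2% and 6.52% of all genes that passed. The sum ratio was 1.95. Cdkn2c, the inhibitor p18 of the D cyclin kinases, had 305 and 356 nuclear CPM in cycling and 21.2 and 15.9 in resting barcodes, a ratio of 17.4 (14.5 to 20.9). It was counted in 127 cycling and 174 resting barcodes. Cdkn2d, the inhibitor p19, was 9.32 times higher (8.04 to 10.8), the pocket protein gene Rbl1 5.76 times, Cdkn1a, the inhibitor p21, 3.10 times (2.42 to 3.94) and Cdkn1b, the inhibitor p27, 2.09 times (1.63 to 2.66). Cdkn1c, the inhibitor p57, had 31.8 and 16.2 against 23.9 and 29.5 nuclear CPM, and the replicates lay on opposite sides of 1 (pooled 0.938, 0.606 to 1.40). Matched on depth, Cdkn1c stood at 1.60. Btg2, an antiproliferative gene, was called lower at 0.502 (0.307 to 0.779), and not called when matched on depth (0.665). Among 34 genes of DNA repair and its checkpoints, 24 passed the count filter. Of these, 13 were called higher and 1 lower, beside the same shares of all genes. The sum ratio was 2.37. Matched on depth, 10 of the list reached the count filter and 4 were called higher, and the sum ratio was 2.25.

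**Figure D4:**
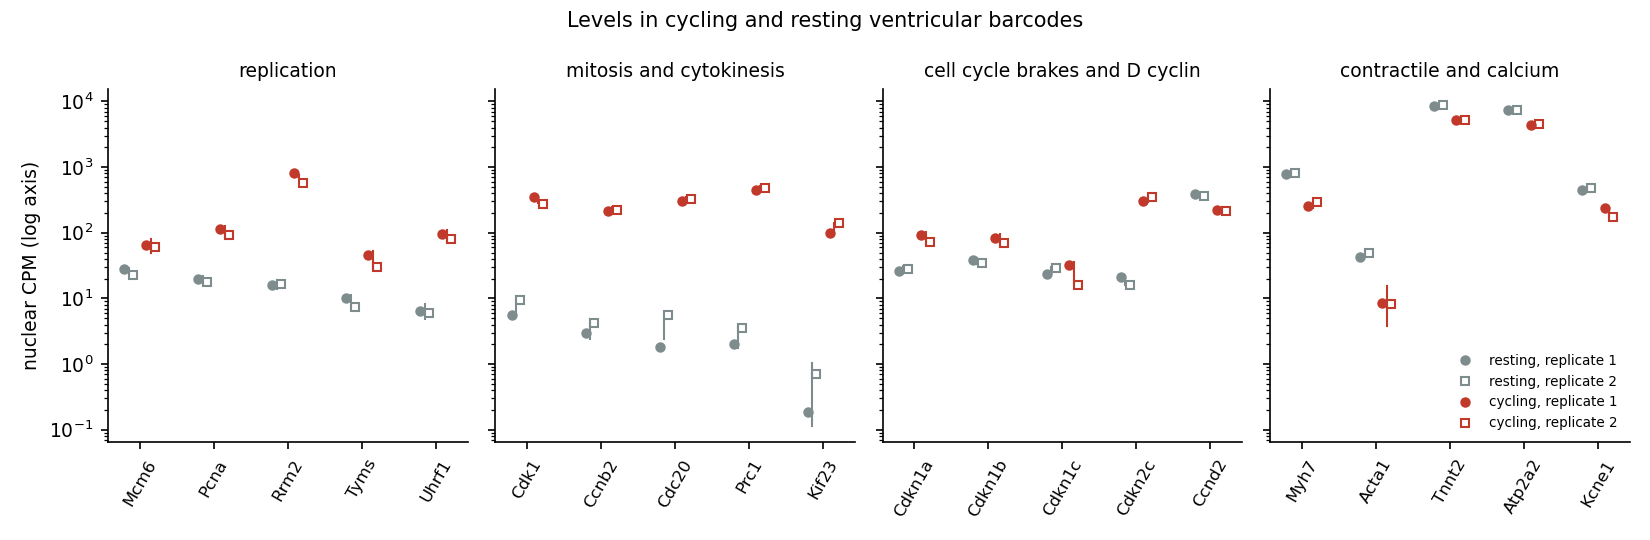
Nuclear CPM (y axis, log scale) of 20 genes in resting (grey) and cycling (red) ventricular barcodes, with filled circles for technical replicate 1, open squares for replicate 2 and lines for the exact 95% Poisson interval of both replicates together. Cdkn2c stood at 305 and 356 in cycling against 21.2 and 15.9 in resting barcodes, Cdkn1c overlapped, and Ccnd2 and the contractile and calcium genes lay lower in both cycling values.

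The summed levels of the contractile genes were lower in cycling barcodes, and neither the filament nor the Z disc list held a member called higher. The 30 thick and thin filament genes summed to 44170 nuclear CPM in cycling and 64069 in resting barcodes, a ratio of 0.689 (0.695 and 0.683). Of the 29 that passed the count filter, 6 were called lower, beside 6.52% of all genes that passed. Myh7, the slow myosin heavy chain of the fetal ventricle, had 251 and 292 nuclear CPM in cycling and 782 and 814 in resting barcodes, a ratio of 0.339 (0.30035 to 0.380). Myh6, the adult heavy chain of the mouse, had 1987 and 2296 against 3778 and 3769, a ratio of 0.564 (0.540 to 0.588). Tnnt2, cardiac troponin T, had 5180 and 5139 against 8638 and 8805, a ratio of 0.592 (0.577 to 0.609). In each of the 3 genes both cycling values lay below both resting ones. Tcap, the titin cap, stood at 0.481 (0.424 to 0.543), Tpm1, the main cardiac tropomyosin, at 0.637 (0.620 to 0.655), and Acta1, skeletal alpha actin, at 0.179 (0.0812 to 0.342) from 9 counts against 448.

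The other filament genes lay between 0.663 and 1.39 and were not called, apart from Neb, which did not reach the count filter. Ttn, titin, had 3253 and 3872 against 4130 and 4238 nuclear CPM (0.846, 0.818 to 0.874), and Actc1, cardiac alpha actin, 6120 and 5986 against 8968 and 8299 (0.699, 0.681 to 0.716). The non-sarcomeric tropomyosins Tpm3 and Tpm4 had ratios of 1.39 (0.904 to 2.06) and 1.30 (0.949 to 1.74). With resting barcodes matched 1 to 1 on depth, Myh7 stood at 0.395, Myh6 at 0.558, Tnnt2 at 0.620, Tcap at 0.511 and Acta1 at 0.0974, while Tpm1 lost its call (0.674). On the scale of all counts Tnnt2 (0.652) and Tpm1 (0.702) were not called, and 4 members of the list were called lower.

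Shares within isoform pairs differed as well. Myh7 made up 11.2% of the Myh6 and Myh7 counts in cycling barcodes (10.1 to 12.5, with 11.2% and 11.3% in the replicates) and 17.4% in resting ones (17.1 to 17.8, with 17.2% and 17.8%). Tnni1, the fetal troponin I, made up 38.5% of the Tnni1 and Tnni3 counts (37.4 to 39.7) against 43.7% (43.4 to 44.0). Acta1 made up 0.136% of the Acta1 and Actc1 counts (0.0622 to 0.258) against 0.530% (0.482 to 0.581). In each of these 3 pairs the fetal or skeletal muscle isoform took a smaller share in cycling than in resting barcodes. Tnnt1 took 0.915% of the Tnnt1 and Tnnt2 counts (0.684 to 1.20) against 0.655% (0.602 to 0.711), the other way round. The intervals of the Tnnt1 shares overlapped.

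At the Z disc, the M band and the membrane attachments, 33 of 34 measured genes passed the count filter. Of these, 6 were called lower and none higher, beside 6.52% and 10.2% of all genes that passed. The sum ratio was 0.741 (0.746 and 0.735). Synpo2l, a Z disc actin binder, stood at 0.438 (0.380 to 0.501), Myom2, the myomesin of mature M bands, at 0.419 (0.361 to 0.483), and Sgca, alpha-sarcoglycan, at 0.211 (0.105 to 0.382). The chaperone Hspb7, the muscle LIM protein gene Csrp3 and Des, desmin, stood at 0.592, 0.618 and 0.623. Csrp3 and Des were called neither on the scale of all counts nor when matched on depth. Smpx and Pdlim5 were near their resting level, at 0.989 (0.939 to 1.04) and 0.999 (0.922 to 1.08). Of 18 intercalated disc genes, 1 was called, beside 16.8% of all genes that passed the filter. Gja1, the ventricular gap junction protein connexin 43, was called lower, with 652 and 723 against 1090 and 1098 nuclear CPM (0.625, 0.580 to 0.674). Gja1 was called neither on the scale of all counts (0.688) nor when matched on depth (0.672). Cdh2, N-cadherin, had a ratio of 0.925 (0.849 to 1.01) and Ctnnb1, beta-catenin, of 1.39 (1.26 to 1.53), not called.

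The summed level of calcium handling genes was lower, with members called in both directions. Of 27 calcium genes, 25 passed the count filter. Of these, 4 were called lower and 3 higher, beside 6.52% and 10.2% of all genes that passed. The sum ratio of the list was 0.707 (0.709 and 0.705). Atp2a2, the calcium pump SERCA2 of the sarcoplasmic reticulum, had 4392 and 4522 nuclear CPM in cycling and 7429 and 7389 in resting barcodes, a ratio of 0.601 (0.583 to 0.618). Pln, phospholamban, which inhibits that pump, had 5466 and 4880 against 8380 and 8234, a ratio of 0.625 (0.609 to 0.642). Ryr2, the release channel, stood at 0.649 (0.604 to 0.696) and Hrc, a luminal calcium binder, at 0.478 (0.376 to 0.600). Matched on depth, the 4 ratios were 0.616, 0.645, 0.594 and 0.403, and Pln was not called. On the scale of all counts Pln (0.688) and Ryr2 (0.714) were not called, which left 2 calcium genes lower and 3 higher. The 3 genes called higher were Itpr2, an inositol trisphosphate receptor, at 3.58 (2.58 to 4.92), and the calmodulin genes Calm2 and Calm3, at 2.72 (2.49 to 2.96) and 1.86 (1.70 to 2.04).

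Of 28 ion channel and pump genes, 19 passed the count filter. Of these, 7 were called lower and none higher, beside 6.52% and 10.2% of all genes that passed. On the scale of all counts 4 were lower, and 3 when matched on depth. Kcne1, an accessory subunit of the slow delayed rectifier potassium channel, had 236 and 176 nuclear CPM in cycling and 456 and 475 in resting barcodes, a ratio of 0.451 (0.393 to 0.515). Its pore subunit Kcnq1 stood at 0.516 (0.320 to 0.793). Kcnj5 stood at 0.493, Kcnk3 at 0.553 and Kcnip2 at 0.560, all genes of potassium channels or their subunits. Kcnk3 and Kcnip2 lost the call on the scale of all counts, and Kcnq1 (0.723), Kcnj5 (0.597) and Kcnk3 (0.562) when matched on depth. Atp1b1, a sodium pump subunit, had a ratio of 1.09 (1.00 to 1.18) and was not called.

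The summed levels of oxidative phosphorylation, fatty acid oxidation, tricarboxylic acid cycle and glycolysis genes had ratios from 0.790 to 0.842, with few members called. The 93 nuclear genes of oxidative phosphorylation summed to 126620 nuclear CPM in cycling and 150350 in resting barcodes, a ratio of 0.842 (0.854 and 0.828), and 81 of 93 measured had a ratio below 1. In that list 1 was called lower and 2 higher, beside 6.52% and 10.2% of all genes that passed the filter. The difference of the list lay in many small ratios. Cox8b, a muscle form of a cytochrome oxidase subunit, had 1603 and 1332 against 2617 and 2293 nuclear CPM (0.598, 0.569 to 0.629), and was not called on the scale of all counts (0.659). Cox6b2, whose main known site is the testis, was 2.57 times higher (1.93 to 3.38), and Ndufaf7, an assembly factor, 1.58 times (1.09 to 2.22). Matched on depth, Cox6b2 stood at 3.96 and Ndufaf7 was not called. Of the 13 protein genes encoded in mitochondria, compared on the scale of all counts, 11 had pooled ratios from 0.768 in mt-Nd4l to 0.890 in mt-Nd2. The others were mt-Atp8 at 0.999 (0.840 to 1.18) and mt-Nd6 at 1.16 (0.981 to 1.37).

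Glycolysis held 6 genes called lower and 1 higher of 25, beside 6.52% and 10.2% of all genes that passed the filter. The sum ratio was 0.790. Aldoa, the muscle aldolase, had 740 and 745 against 1332 and 1343 nuclear CPM, a ratio of 0.555 (0.517 to 0.596), and Eno3, the muscle enolase, stood at 0.612. Eno3 was called neither on the scale of all counts (0.673) nor when matched on depth, where 2 members were lower and none higher. Slc16a3, a lactate exporter, was called higher, with 15 counts against 61 and a ratio of 2.19 (1.15 to 3.89). In fatty acid oxidation, 2 of 29 genes were called lower, Ucp3 at 0.162 (0.0193 to 0.598, 2 counts against 110) and Acads at 0.606 (0.494 to 0.736), which was not called on the scale of all counts. Ucp3 had no cycling count in replicate 2. The sum ratio of the fatty acid oxidation list was 0.813, and 6.52% of all genes that passed the filter were called lower. Of 27 tricarboxylic acid cycle and creatine kinase genes, 1 was called, beside 16.8% of all genes that passed the filter. Ckm, the muscle creatine kinase, was called lower, with 1342 and 1249 against 2448 and 2578 nuclear CPM (0.519, 0.492 to 0.548). Cs, citrate synthase, had a ratio of 1.1205 (1.03 to 1.22), and the myoglobin gene Mb of 0.642 (0.622 to 0.662), not called. The median of the tricarboxylic acid cycle list was on the other side of 0 on the scale of all counts, at 0.028 on the log2 scale against -0.11.

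Of 21 regulators of mitochondrial content, 19 passed the count filter. Of these, 3 were called, beside 16.8% of all genes that passed. Their list median lay at -0.017 on the log2 scale and at 0.12 on the scale of all counts. Nrf1, nuclear respiratory factor, was 3.40 times higher (2.42 to 4.71), the receptor gene Rxra stood at 0.525 (0.290 to 0.883), and Esrrb at 0.148 (0.00369 to 0.858) from 1 count against 60. Rxra was not called on the scale of all counts, and Esrrb had no cycling count in replicate 1. Ppargc1a, the coactivator of mitochondrial genes, had 352 and 377 against 362 and 338 nuclear CPM and a ratio of 1.03 (0.928 to 1.15).

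The summed level of cardiac transcription factors was near that of resting barcodes, at a ratio of 0.991. Their median ratio was 0.874, and 21 of 30 measured lay below 1. Of 30 measured, 28 passed the count filter. Of these, 1 was called higher and 1 lower, beside 10.2% and 6.52% of all genes that passed. Hand1 was higher, with 8 counts against 35 (2.03, 0.815 to 4.46). Hdac9, a repressor of hypertrophic genes, was lower, with 10 counts against 184 (0.483, 0.228 to 0.909). Neither reached the count filter when matched on depth. Nkx2-5, the homeobox factor of cardiac muscle, had 226 and 211 against 235 and 234 nuclear CPM (0.934, 0.814 to 1.07), and Gata4 119 and 130 against 93.2 and 93.0 (1.33, 1.101 to 1.59). Tbx20 stood at 0.810 (0.744 to 0.880), Hey2, a factor of the compact layer, at 0.646 (0.496 to 0.828) and Irx3, of the trabecular conduction system, at 0.687 (0.464 to 0.986), none called. Of 19 genes that mark compact or trabecular myocardium, 18 passed the count filter. Beside 6.52% and 10.2% of all genes that passed, 4 of these were called lower and none higher. Among them were Nppb, Cpne5 and the channel gene Kcne1 given above. Nppb, brain natriuretic peptide, had 159 and 231 against 385 and 443 nuclear CPM (0.467, 0.404 to 0.537). Nppa, atrial natriuretic peptide, had 523 and 433 against 472 and 512 (0.985, 0.898 to 1.08), with the replicates on opposite sides of 1. Cpne5 had 1 count, in replicate 2, against 170, a ratio of 0.0523 (0.00132 to 0.295).

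Among 41 regulators of neonatal maturation and regeneration, 37 passed the count filter. Of these, 1 was called higher and 3 lower, beside 10.2% and 6.52% of all genes that passed. Igf2bp3, a fetal binder of mRNAs of the insulin-like growth factor family, was 2.03 times higher (1.51 to 2.69). Thrb, a thyroid hormone receptor, had 1 count, in replicate 1, against 59 (0.151, 0.00375 to 0.873), Meg3, an imprinted noncoding RNA, stood at 0.404 (0.281 to 0.564) and Fbxo32, the ubiquitin ligase atrogin-1, at 0.511 (0.359 to 0.709). Matched on depth, Meg3 stood at 0.570 and was not called. Meis1, a homeobox factor tied to the arrest of cardiomyocyte division, had 78.7 and 72.9 against 73.5 and 65.8 nuclear CPM (1.09, 0.854 to 1.36). Yap1, the effector of the Hippo pathway, had a ratio of 1.38 (1.09 to 1.73), Igf2 of 1.14 (0.980 to 1.33) and H19 of 0.749 (0.615 to 0.905), none called.

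Of 31 genes of the general cytoskeleton, 30 passed the count filter. Of these, 4 were called higher and 1 lower, beside 10.2% and 6.52% of all genes that passed. The sum ratio of the list was 1.08. Tubb6, a beta tubulin, was 13.001 times higher (10.8 to 15.7), Marcks, which links actin to the membrane, 2.35 times, Vim, vimentin, 2.02 times (1.76 to 2.30, but 1.44 and not called when matched on depth) and Mapre1, a microtubule end-binding protein, 1.71 times. Myl9, a light chain of smooth and non-muscle myosin, stood at 0.518 (0.454 to 0.588). Genes of protein synthesis were near their resting level. Of 82 cytosolic ribosomal protein genes, 1 was called, Rpl10 at 0.401 (0.198 to 0.730), and the sum ratio was 0.974. Rpl10 shares sequence with related copies and had ratios of 0.224 and 0.567 in the single replicates, and the median of the ribosomal list changed side on the scale of all counts (0.10 against -0.038 on the log2 scale). Among 22 other genes of translation and ribosome assembly, 21 passed the filter. Of these, 2 were called higher and 1 lower, beside 10.2% and 6.52% of all genes that passed. Nop58 was 2.99 times and Eif4e, the cap-binding factor, 1.97 times higher. Fbl, the nucleolar methyltransferase fibrillarin, stood at 0.629 (0.416 to 0.917) and was not called on the scale of all counts. Of 18 ubiquitin and protein turnover genes, 17 passed the filter and 1 was called, beside 16.8% of all genes that passed. Ube2t, which acts in crosslink repair, was higher at 14.8 (11.2 to 19.6). Of 26 immediate early and heat shock genes, 23 passed the filter. Of these, 2 were called higher and none lower, beside 10.2% and 6.52% of all genes that passed. They were Klf6 and Hsp90aa1, at 2.58 (1.95 to 3.37) and 2.26 (2.07 to 2.46). Jun had a ratio of 0.731 (0.548 to 0.959) and Fos of 0.801 (0.374 to 1.53), not called.

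The genes furthest apart outside all lists were also named by rule. Higher in cycling barcodes were Knstrn, a kinetochore adaptor, at 300 and 346 nuclear CPM against 3.498 and 5.15 (75.9, 54.8 to 108), Cip2a, an inhibitor of protein phosphatase 2A, at 38.6, Gas2l3 at 38.1, Pclaf, a partner of PCNA, at 36.3 and Neurl1b, a ubiquitin ligase, at 33.0. They were followed by the noncoding RNA Lockd, which lies near Cdkn1b, at 19.9 (17.5 to 22.6), Arl6ip1 at 18.7, the ubiquitin ligase G2e3 at 16.9, Arl4c at 9.76 and Rangap1, which acts on the GTPase Ran, at 9.61. Lower were Scd4, a cardiac stearoyl-CoA desaturase, at 15.1 and 6.07 nuclear CPM against 69.0 and 76.8 (0.152, 0.0781 to 0.267), the lipid droplet protein gene Plin4 at 0.216 (0.0981 to 0.415), the splicing factor gene Rbfox1 at 0.252 and the lipid transporter gene Abca1 at 0.252. Lrtm1 at 0.253, the circadian factor gene Dbp at 0.273, Pirt at 0.293, Abcc5 at 0.315, Tbc1d16 at 0.320 and Frmd5 at 0.324 followed. The 5 that stood lowest had between 6 and 12 counts in cycling barcodes. In each, at least 1 single replicate differed by over 1.5 times from the pooled value. The replicates stood at 0.218 and 0.0791 for Scd4, 0.0854 and 0.385 for Plin4 and 0.14 and 0.422 for Rbfox1. They stood at 0.364 and 0.154 for Abca1 and 0.15 and 0.387 for Lrtm1. Dbp stood at 0.172 and 0.384. Matched on depth, Gas2l3 stood at 106, from 2 resting counts, Abca1 at 0.484 and Lrtm1 at 0.166, the last 2 below the count filter.

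The cycling barcodes also differed among themselves. After thinning to 2000 counts, 175 of 179 had at least 3 counts of the G2M list (97.8%) and 92 at least 3 of the S list (51.4%, 43.8 to 58.9). Both lists were reached by 90 barcodes, the G2M list alone by 85, the S list alone by 2 and neither by 2. The S share was 60% in technical replicate 1 and 40.5% in replicate 2. In resting barcodes the shares were 7.03% and 6.86%, with 2108 of 2419 at neither. The 8 score genes act mostly in G2 and mitosis, and of the 2419 resting barcodes, 141 reached the S list alone.

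**Figure D5:**
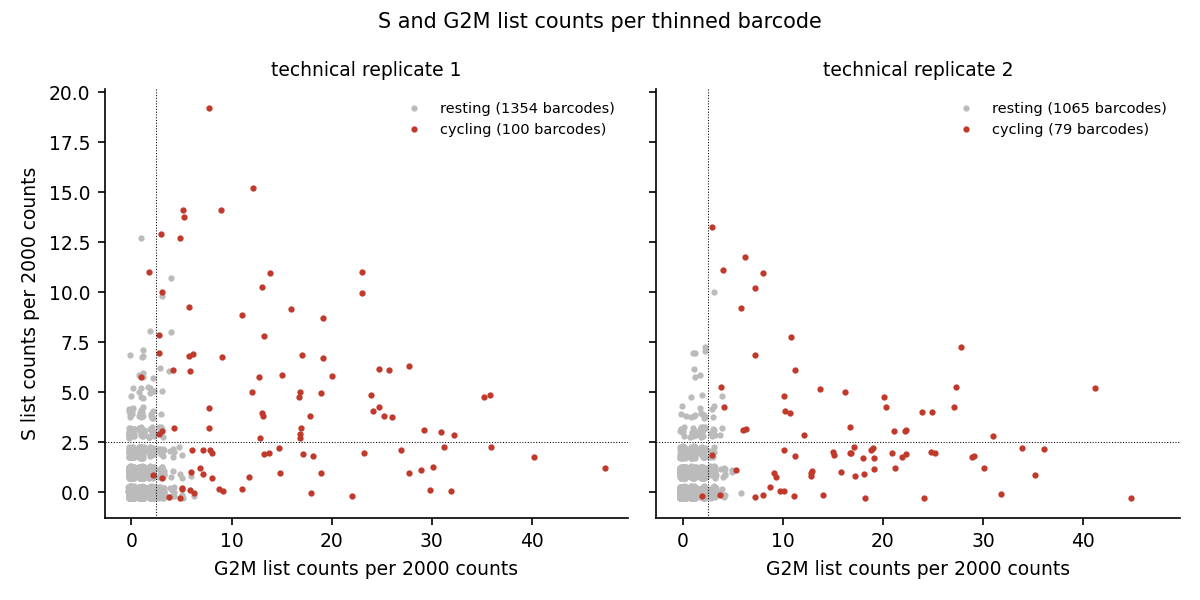
Counts of the S list (y axis) against counts of the G2M list (x axis) per ventricular barcode after thinning to 2000 counts, with small random offsets so that points do not hide each other, in technical replicates 1 (left) and 2 (right). Dotted lines mark the threshold of 3 counts. Most cycling barcodes (red) lie right of the vertical line, 58 and 32 of them also above the horizontal one.

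The 92 cycling barcodes with S list counts of 3 or more were set beside the 87 with fewer. The S list chose this split, and its genes are not results of it. Aurkb had 104 and 97.2 nuclear CPM in the replicates of the first set and 11.9 and 48.6 in the second, a ratio of 3.17 (1.83 to 5.74). Cdk1 stood at 420 and 335 against 262 and 230 nuclear CPM (1.60, 1.28 to 2.00), and Hmgb2 at a ratio of 1.497 (1.37 to 1.64). Cenpa stood at 718 and 1005 against 1240 and 1597 (0.569, 0.505 to 0.641), Cdc20 at 258 and 270 against 370 and 356 (0.723, 0.579 to 0.902) and Ube2c at a ratio of 0.766 (0.674 to 0.870). Both replicates lay on the same side of 1 for each of these 6 genes, which are part of a longer set compared. The G2M list as a whole had a ratio of 1.01 (0.971 to 1.04). Birc5 stood at 1.04, Aurka at 1.07 (1.17 and 0.870) and Ect2 at 1.01 (0.925 and 1.28). Ccnb2 stood at 0.745 and Prc1 at 1.25, each on the same side of 1 in both replicates. The thick and thin filament sum was 45037 against 43350 nuclear CPM (1.04, with 1.06 and 1.00), so it was low in both sets beside the 64069 of resting barcodes. Myh7 had ratios of 0.621 and 3.44 in the 2 replicates, and its pooled value is not read.

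Markers of other cell types were summed in both states, and their part in the results above was not tested. Over the markers of fibroblasts, endothelium, mural cells, macrophages and epicardium the level was 772 nuclear CPM in cycling (936 and 573) and 787 in resting barcodes (744 and 843). At least 5 such counts, which are raw counts and grow with depth, were found in 13.97% of cycling and 8.33% of resting barcodes. The 10 fibroblast markers summed to 710 and 229 nuclear CPM in the cycling replicates and 487 and 480 in the resting ones, and 1 of them, Fbln1, was called higher (1.96, 1.41 to 2.67, and 3.17 when matched on depth). The 10 endothelial markers had a sum ratio of 0.866 (0.872 and 0.853), the 8 mural markers of 1.20 (0.763 and 1.58) and the 9 macrophage markers of 0.713 (0.856 and 0.595), with none called. The 7 epicardial markers had 8 counts against 73, with 3 at 0 in cycling barcodes, and the 5 erythroid ones 4 against 31. The 12 atrial and conduction markers had a sum ratio of 0.891. Without the barcodes that had 5 or more such counts, 1011 genes were called higher and 637 lower. Of the main calls that passed the filter there, 857 of 962 higher and 447 of 594 lower were called again.

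The same score picked 80 of 1266 atrial cardiomyocytes (6.32%, 5.04 to 7.80), a share whose interval overlapped that of the ventricle. There the sum ratios were 20.4 for G2 and mitotic entry, 12.4 for kinetochore and condensation, 0.694 for thick and thin filament, 0.636 for calcium handling and 0.870 for nuclear oxidative phosphorylation genes, beside 22.8, 13.3, 0.689, 0.707 and 0.842 in the ventricle. At least 5 counts of other-cell markers were found in 41.3% of the cycling and 18.7% of the resting atrial barcodes. These are raw counts and grow with depth, and the median depth was 8114.5 counts in cycling and 5461 in resting atrial barcodes. As a level, the same markers stood at 1141 nuclear CPM in cycling and 1147 in resting atrial barcodes. The differences between the chambers were not tested, nor was the part that those counts play in them.

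The scale of the values bears on all ratios. Nuclear genes took 67.0% of the counts in cycling and 60.9% in resting barcodes, so on the scale of all counts each pooled ratio is 1.101 times as large. The factor was not the same in the 2 replicates. The sum ratio of licensing genes went from 4.17 to 4.68 in replicate 1 and from 3.03 to 3.25 in replicate 2. The median over all genes then went from 0.0373 to 0.176 on the log2 scale, and 1349 genes were called higher and 432 lower. With resting barcodes matched on depth, 681 of 5866 genes that passed the filter were called higher and 213 lower. Of the main calls that passed it there, 540 of 671 higher and 132 of 202 lower were called again.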

How the data were processed

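Counts per gene and cell barcode were deposited for each of the 2 technical replicates. Per the submitters' processing notes they were made with Cell Ranger 2.1.0 on mm10, and whether a count is a molecule or a read was not given in the sources used here. Barcodes, states and levels were computed from the deposited counts as the report defines them, with 16 genes used by the rules left out of the results. GENCODE vM21 named 27645 of 27999 features.

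Counts were summed per state and technical replicate. Ratios have exact conditional binomial 95% intervals and shares Clopper-Pearson ones, and both cover counting error only. There was 1 biological sample, so no test was run. The scripts were tested on simulated data. Doublets were not called. The values keep barcodes with at least 5 counts over the markers of other cell types, and 1 alternative leaves them out. The 2 replicate records carry the same internal identifier, and files were assigned as the deposit lists them.

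The members and gene lists were chosen with earlier results of these data known. The text names, per list, up to 5 called members with the largest ratios and up to 3 with the highest levels, 10 called genes each way outside the lists with at least 100 counts in each replicate, and a fixed set. The other genes named were chosen after their values were seen, among them Anapc11, Btg2, Cdc25a, Cdh2, Chmp4b, Cit, Cs, Ctnnb1, Des, Lmna, Mcm2, Myh9, Myh10, Pola2, Smc3, Tpm1 and Yap1. The S and G2M lists are standard published ones without the score genes, added after the files were seen. Some members of the lists are counted but not reported by name here. Promoters are from RefSeq. Sums and intervals came from scipy 1.17.1 and numpy 2.4.6 under Python 3.11.15, tables from pandas 2.3.3 and plots from matplotlib 3.10.9.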

Additional observations from a re-analysis of the deposited data

How the results depend on the processing

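With 1 technical replicate alone, in which a gene needs 1.5-fold once, 1893 to 1969 genes were higher and 1679 to 1763 lower. Without a filter on low counts 1510 were higher and 2302 lower, with at least 100 counts in each replicate 476 and 252, and at 2-fold 511 and 225. Depth matching gave 681 higher and 213 lower of 5866 genes, and thinning to 2000 counts gave 671 and 638 of 7227. Of the main calls that passed the filter when matched, 540 of 671 higher and 132 of 202 lower were called again. When thinned, 410 of 619 higher and 177 of 350 lower were. On the median of ratios scale 918 were higher and 734 lower. The cycling share was 5.91% to 6.02% with each replicate alone, 6.94% at a score of at least 3, 4.10% at 10, 5.74% thinned, 5.66% without barcodes with other-cell markers, 5.87% at a Myl2 part above 0.95 and 6.83% without barcodes over 50% mitochondrial.

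Some values near 0 on the log2 scale changed sign. The median of the maturation list, 0.12, became -0.017 without replicate 1 and 0.10 without replicate 2, -0.0070 when matched on depth and -0.039 when thinned. The tricarboxylic acid cycle median, -0.11, became 0.028 on the scale of all counts, and the median of the ubiquitin list, 0.029, became -0.017 on the median of ratios scale. The G1 median, 0.35, became -0.033 at a Myl2 part above 0.95. E2f5 was not near 0, having been called higher at ratios of 2.20 and 2.63 in the 2 replicates. It became -0.085 on the log2 scale when thinned, the 1 of 164 called named genes that changed sign over 15 settings. The cause was not tested. No paired analysis was possible because no test was run. Each ratio is already taken within a library. Of 230 genes called higher and 59 called lower that were in a list or named by rule, all 230 and 42 were also called on the scale of all counts, and 186 and 32 when matched on depth, where 193 and 45 reached the count filter.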
